A study of Mus musculus with 30 samples.

Results

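The effect of silencing MCU was measured 7 days after injection, in 3 single muscle fibres that carried the silencing vector AAVshMCU against 4 fibres of the transfected control AAVshLuc. These are 7 of the 30 fibres of the series, and they were taken by their sample titles, so no value of these arrays chose them. All fibres came from the extensor digitorum longus (EDL), a fast muscle of the mouse hindlimb, of male CD1 mice that were 8 weeks old at injection. Adeno-associated virus (AAV), a vector that reaches muscle fibres after injection, delivered a short hairpin RNA against Mcu to the silenced group. The sample titles name a hairpin against luciferase for the control, whereas its other labels describe a virus without insert, and the sources used here do not settle which was injected. Both groups carried the green marker ZsGreen, by which injected fibres were picked after collagenase had freed them. Wild type fibres (4 at day 7) had no injection, and the MCU vector group (3 at day 7) overexpressed MCU. At day 14 there were 4 silenced and 4 control fibres.

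Several features limit the groups as a model. Part of the RNA of each fibre went into a quantitative PCR for MCU, and only fibres with the intended change went on to the arrays. The promoter that drives the hairpin, the number of animals and the animal behind each fibre are not given in the sources used here, so the fibres of a group may share an animal and p-values measure the spread between fibres. Amplified cDNA was labelled from random primers, which does not keep the strand of a transcript. A fibre is a syncytium of many nuclei, and fewer nuclei with a transcript cannot be told apart from less transcript per nucleus.

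MCU forms the pore of the uniporter, a channel of the inner mitochondrial membrane that lets calcium released during contraction into the matrix. MICU2 is one of the subunits that gate the pore, EMRE (gene Smdt1) holds pore and gate together, MCUb (Mcub) is a pore subunit that lowers its current, and the exchanger NCLX (Slc8b1) returns calcium to the cytosol. Matrix calcium activates the pyruvate, isocitrate and oxoglutarate dehydrogenases and so feeds the respiratory chain, and in skeletal muscle the uniporter is known to act on fibre size.

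The array measured Mcu with 1 probe of 60 bases, shown because it is the check of the labels. It lies on the minus strand at chr10:58929203-58929262 (mouse build mm9, per the files), and no gene annotation of that build was used here.
Mcu: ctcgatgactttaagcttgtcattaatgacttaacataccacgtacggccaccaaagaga
Levels are log2 of the processed spot signal over the 75th percentile of the array, and differences are silenced minus control between group means. Mcu stood at 1.299, -0.58 and 0.80 in silenced fibres 1 to 3 and at 2.66, 2.30, 2.31 and 3.04 in control fibres 1 to 4. Every silenced fibre lay below every control, and silenced fibre 2 was the lowest. The difference was -2.07 (SE 0.41, adjusted p = 0.00172) by limma, a linear model over all 30 arrays with Benjamini-Hochberg adjustment over all genes. This value is not independent of the PCR by which the fibres were chosen. Wild type fibres averaged 2.69, close to the controls, and at day 14 the difference was -3.06.

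**Figure D1:**
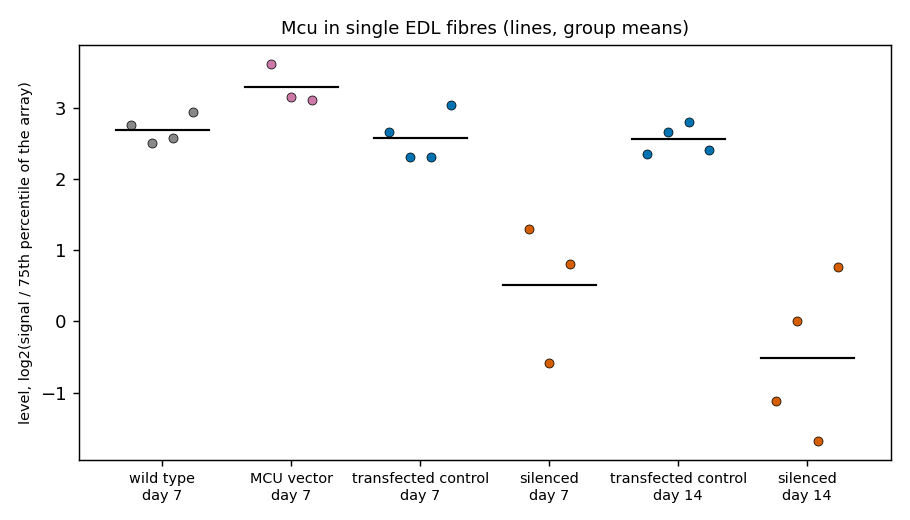
Level of Mcu (vertical axis, log2 of signal over the array's 75th percentile) in each fibre of 6 groups, with a line at each group mean. The 3 silenced fibres of day 7 lie between -0.58 and 1.299, below all 4 transfected controls.

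Of the 12 measured genes for the uniporter complex and mitochondrial calcium transport, Mcu alone was called, that is, had an adjusted p under 0.05. Mcub had levels of -1.83, -2.10 and -2.11 in the silenced fibres and -3.03, -2.14, -2.93 and -2.85 in the controls, a difference of 0.72 (SE 0.34, adjusted p = 0.157); the groups did not overlap, but the test did not pass. The gate subunit Micu2 differed by -0.23 (SE 0.24, adjusted p = 0.539), and for Smdt1 the value was -0.16 (SE 0.14, adjusted p = 0.494). Mcur1, a regulator of uniporter assembly, differed by 0.66 (SE 0.22, adjusted p = 0.05001) and just missed the threshold, as did Slc8b1 with -0.68 (SE 0.23, adjusted p = 0.0549). The second Slc8b1 probe, well above background on all 7 arrays, had the opposite sign, with 0.17. Micu2 and Smdt1 changed sign with 1 fibre left out, to 0.00068 without control fibre 3 and to 0.03 without silenced fibre 1.

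The arrays themselves differed between the groups. The 75th percentile of signal was 82.51 to 102.5 in silenced and 106.6 to 128.3 in control fibres, with no overlap (exact permutation test, 2-sided, p = 0.0571, the smallest that 3 against 4 fibres can give; 0.114 after adjustment over 14 array measures). The share of probes well above background was 49.41% to 53.02% in silenced and 50.94% to 55.37% in control fibres (exact permutation p = 0.286). Both groups shared a slide, silenced fibres in its columns 1 and 2 and controls in columns 3 and 4, so that column and group cannot be told apart. Control fibre 3 stood apart: its correlation with the other controls across genes was 0.959 to 0.966, against 0.977 to 0.981 among those 3. Wild type and MCU vector fibres of day 7 were on another slide; against wild type, 4126 genes were called in the controls (17.7%), 1396 higher (5.98%) and 2730 lower (11.7%), so that slide and injection cannot be told apart there. All 10 markers of the muscle fibre itself, such as Ckm and Myh4, were detected on all 7 arrays. The number of arrays limits the precision of every value.

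Of 23341 genes tested, 3220 were called (13.8%), 2046 of them higher (8.77%) and 1174 lower (5.03%) in silenced fibres. The groups did not overlap for 1777 of the higher and 1014 of the lower genes, where 14% and 7.93% of all genes tested were free of overlap in the same direction. At least 2-fold differences were seen for 728 of the genes that rose and 627 of those that fell. Among the 13568 genes with a gene symbol, 956 were higher (7.05%) and 840 lower (6.19%). The excess of rises lay in features named by a genome region, 11.6% higher against 2.94% lower, and in other unnamed transcripts.

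How many genes rose against fell depended on the scaling. The median of all genes was 0.089, and scaling to the array median moved it to -0.038, with 2555 calls of which 39.6% were higher in place of 63.5%. Scaling on the probes detected on every array gave 3885 calls with 73.3% higher. A fit of the 7 arrays alone, with 5 residual degrees of freedom in place of 22, called 868 genes, 464 higher and 404 lower, of which 807 were among the 3220. Without silenced fibre 3 there were 1938 calls, 1714 of them among the 3220. Background treatment mattered for dim genes: normexp correction, which with its offset of 50 compresses low signals, kept the call of 123 of the 145 called genes named here but brought 38 of those closer to 0 by more than 1.5-fold, among them Egr2 (to -2.61), Myc (-2.31), Slc2a1 (-2.22) and Tmem14c (2.24). Below, settings are given as normexp, floor (dim spots at the lowest detected signal), probe median (the median over a gene's probes) and median scaling. Small differences such as those of the mitochondrial genes are therefore to be read against the median of all genes, and the large falls below are several times that shift.

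Some of the largest falls were of genes that muscle is known to induce on overload, injury or denervation. Of 16 measured RGK GTPases, ankyrin-repeat and Z-disc stress genes, 6 fell and 1 rose (43.8% called, against 13.8% of all genes), with a median of -0.92. This and the other gene lists were chosen with earlier results of these data known, so their shares describe the lists and test nothing. Rrad, an RGK GTPase that inhibits voltage-gated calcium channels, stood at 0.89, -0.03 and 0.74 in the silenced fibres and at 3.45, 3.75, 5.99 and 4.80 in the controls, -3.96 (SE 0.78, adjusted p = 0.00173). Every silenced fibre lay below every control, and control fibre 3 was the highest. Gem, of the same family, was at -1.59, -2.63 and -4.36 against 0.85, 0.66, 0.71 and 0.35, -3.51 (SE 0.77, adjusted p = 0.00402); its second probe gave -0.22. Gem was well above background in 1 of 3 silenced fibres, and its difference was -1.29 with normexp correction, and -2.76 without silenced fibre 3 or -4.14 without silenced fibre 1.

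The probe for Rrad, shown because it carries one of the largest falls, lies on the minus strand at chr8:107152532-107152591 (mm9).
Rrad: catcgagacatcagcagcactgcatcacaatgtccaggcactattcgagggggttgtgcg
Ankrd1, an ankyrin-repeat protein that binds titin and reports on stretch, stood at 1.47, 0.54 and 0.33 in silenced and 5.00, 4.94, 4.01 and 4.33 in control fibres, -3.79 (SE 0.84, adjusted p = 0.00420). Xirp1, an actin-binding protein of repairing myofibrils, stood at 3.67, 2.69 and 2.58 against 5.69, 6.06, 5.53 and 5.70, -2.77 (SE 0.68, adjusted p = 0.00859). In both genes the groups were apart by more than the range within either. The filamin Flnc (-1.92, SE 0.53, adjusted p = 0.0181), which crosslinks actin at the Z-disc, and Mustn1 (-1.92, SE 0.52, adjusted p = 0.0156), a small protein of muscle regeneration, fell as well. Lmcd1 (2.25, SE 0.72, adjusted p = 0.0401), a LIM-domain protein, rose, although silenced fibre 2, without which the difference was 2.95, at 3.097 lay within the controls. Wild type fibres were close to the silenced ones, at -0.36 for Rrad, -3.57 for Gem, -0.06 for Ankrd1 and 2.57 for Xirp1, on another slide, so the transfected controls stood above both. The calls of Mustn1 (silenced 3), Flnc (silenced 2) and Lmcd1 (median scaling, silenced 1, 3, control 1, 2) did not hold with the fibre left out or the setting in brackets, at an adjusted p of 0.0567 to 0.177. With the spread taken from the 7 arrays alone, the call of Lmcd1 was lost (adjusted p = 0.128).

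Immediate-early genes, transcription factors and regulators that cells switch on within minutes of a stimulus, fell in 11 of 30 members and rose in none (36.7% called), with a median of -1.02 and 27 of 30 differences below 0. The AP-1 subunit Fosb stood at 2.98, 2.26 and 2.48 in silenced and 5.77, 5.80, 5.35 and 5.86 in control fibres, -3.12 (SE 0.62, adjusted p = 0.00185). Egr2, a zinc-finger factor, was at -0.07, -0.59 and -1.57 against 2.14, 3.69, 3.74 and 1.79, -3.58 (SE 0.81, adjusted p = 0.00479). The growth regulator Myc was at -0.15, -1.84 and -2.15 against 2.00, 2.02, 2.96 and 1.63, -3.53 (SE 0.80, adjusted p = 0.00479). In none of these 3 genes did the groups overlap. Without silenced fibre 1 the difference of Myc was -4.15.

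The AP-1 subunit Fosl1 was not well above background in any silenced fibre and so has only a bound. It was at least 12.9-fold lower than in the controls (measured means -4.61 and 0.98, adjusted p = 0.000116). The bound sets the control mean against the lowest signal that counts as detected on each silenced array. Like every bound given here, it holds for the processed signals and not for every alternative run. Over the alternative runs the measured difference of Fosl1 was as small as -2.06. The kinase Plk2 was at least 15.6-fold lower by the same rule (measured means -2.81 and 1.37, adjusted p = 0.000412). Without control fibre 3 its measured difference was -3.46 in place of -4.19, and over all alternative runs it was as small as -2.08. Smaller falls were those of Fosl2 (-1.09, SE 0.20, adjusted p = 0.000937), the Krüppel-like factors Klf6 (-2.16, SE 0.46, adjusted p = 0.00332) and Klf10 (-2.22, SE 0.60, adjusted p = 0.0151), the orphan nuclear receptors Nr4a3 (-2.49, SE 0.60, adjusted p = 0.00716) and Nr4a1 (-0.95, SE 0.23, adjusted p = 0.00768), and Srf (-0.59, SE 0.16, adjusted p = 0.0160), the serum response factor. Wild type fibres stood between the groups for Fosb (4.20) and Egr2 (1.18), and near the silenced fibres for Myc (-1.42). The fibre left out or the setting in brackets ended the calls of Klf10 (silenced 3), Nr4a3 (silenced 2), Nr4a1 (silenced 3) and Srf (probe median, silenced 3, control 1), at an adjusted p of 0.0512 to 0.0861. In the fit of the 7 arrays alone, the calls of Nr4a1 and Srf were lost (adjusted p 0.0717 to 0.126).

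Motifs of factors that drive immediate-early transcription were looked for in the promoters of these genes. TGACG, the core of the cAMP response element, was searched on both strands from 250 bases before to 50 after each RefSeq gene start (GRCm38.p6). It lay in 16 of the 23 immediate-early genes with a promoter in the table (69.6%) and in 6 of the 8 that fell (75%), against 32.1% of the 10693 tested genes with a promoter. The share of those that fell was thus near that of the whole list. Among all called genes TGACG lay in 37.6% of those that fell and 25.9% of those that rose. The CArG box, which serum response factor binds, lay in 3 of the 23 (13%: Egr2, Srf and Zfp36), against 1.72% of tested genes; among all called genes it lay in 3.32% of those that fell and 0.963% of those that rose. The AP-1 site TGANTCA lay in none of the 23, against 6.97% of tested genes. Egr2 at chr10:67537619-67537918 and Nr4a3 at chr4:48045055-48045354, both on the plus strand, are shown because Egr2 holds both motifs and Nr4a3, like Nr4a1, holds 4 matches of TGACG; capitals mark TGACG or its reverse complement and, in Egr2, also the CArG box.
Egr2: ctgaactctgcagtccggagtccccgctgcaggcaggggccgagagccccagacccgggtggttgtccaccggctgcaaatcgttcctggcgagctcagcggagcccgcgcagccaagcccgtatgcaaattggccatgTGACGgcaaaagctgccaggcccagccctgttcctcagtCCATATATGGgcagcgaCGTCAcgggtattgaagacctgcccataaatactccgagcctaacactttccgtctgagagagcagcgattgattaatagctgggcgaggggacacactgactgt
Nr4a3: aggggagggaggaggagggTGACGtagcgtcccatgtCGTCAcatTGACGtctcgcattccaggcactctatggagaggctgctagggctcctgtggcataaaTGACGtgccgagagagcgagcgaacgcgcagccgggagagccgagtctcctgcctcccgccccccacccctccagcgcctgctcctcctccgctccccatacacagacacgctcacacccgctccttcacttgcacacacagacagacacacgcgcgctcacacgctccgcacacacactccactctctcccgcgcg
Egr2 has 5 promoters in the table; 3 of them hold these matches, and 1 of those is printed. A match is a stretch of letters and does not show that a factor binds there.

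Genes of interleukin-6 and JAK-STAT signalling fell in 4 of 15 members and rose in none (26.7% called, against 13.8% of all genes), with a median of -0.04. Stat3, the transcription factor of this pathway, stood at 3.16, 2.89 and 2.81 in silenced and 4.43, 4.93, 5.09 and 5.06 in control fibres, -1.93 (SE 0.20, adjusted p = 1.74e-06), with the fibres of each group close together. Its kinase Jak1 stood at 2.39, 2.67 and 2.23 against 3.95, 3.63, 3.65 and 3.35, -1.22 (SE 0.26, adjusted p = 0.00332). Timp1, a metalloproteinase inhibitor induced through Stat3, was not well above background in silenced fibres and at least 3.74-fold lower (measured means -4.16 and -0.80, adjusted p = 0.00474). Over the alternative runs its measured difference was as small as -0.78. Cebpb (-0.83, SE 0.24, adjusted p = 0.0232), a leucine-zipper factor of inflammation, fell less. At day 14 the same contrast gave -1.03 for Stat3 and -1.09 for Jak1. Wild type fibres stood at 3.15 for Stat3, within the range of the silenced fibres. With the fibre left out or the setting in brackets, adjusted p was over 0.05 for Timp1 (normexp, floor) and Cebpb (silenced 2, 3, control 2, 3), at 0.0524 to 0.123. On the 7 arrays by themselves, the call of Cebpb was lost (adjusted p = 0.0988).

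Some targets of Nrf2, the transcription factor of the oxidative stress response, fell. Of 21 antioxidant genes and Nrf2 targets, 4 fell and 2 rose (28.6% called), with a median of -0.02. Hmox1, the haem oxygenase that degrades haem, stood at 1.28, 0.81 and 0.97 in silenced and 3.40, 4.20, 3.62 and 3.36 in control fibres, -2.63 (SE 0.53, adjusted p = 0.00198), or -2.03 as the median over its probes. Srxn1, the sulfiredoxin that repairs oxidised peroxiredoxin, stood at 1.36, 0.73 and 1.07 against 4.15, 4.71, 5.19 and 2.83, -3.17 (SE 0.74, adjusted p = 0.00598), with control fibre 4 the lowest control. The thioredoxin reductase Txnrd1 (-1.03, SE 0.21, adjusted p = 0.00202) and Nfe2l2 (-1.14, SE 0.30, adjusted p = 0.0123), the gene of Nrf2, were lower. Osgin1, an oxidative stress-induced growth inhibitor that the list did not hold, stood at 3.39, 1.84 and 1.52 against 5.81, 6.55, 6.41 and 5.88, -3.91 (SE 0.83, adjusted p = 0.00308). The ferritin light chain Ftl1 (-1.60, SE 0.32, adjusted p = 0.00178), from the iron list, fell too.

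Both antioxidants that rose act in the mitochondrial matrix. The peroxiredoxin Prdx3 stood at 2.38, 2.57 and 2.52 against 1.84, 2.05, 1.67 and 1.67, 0.68 (SE 0.17, adjusted p = 0.0108), and the thioredoxin Txn2 (0.41, SE 0.13, adjusted p = 0.0438) rose less. Wild type levels were 1.13 for Hmox1, 1.83 for Srxn1 and 1.90 for Osgin1, nearer to the silenced fibres than to the controls. Lost with the fibre left out or the setting in brackets were the calls of Nfe2l2 (silenced 2) and Txn2 (median scaling, normexp, probe median, silenced 1, 3, control 1, 2, 4), at an adjusted p of 0.0537 to 0.248. When only the 7 arrays were fitted, the calls of Txnrd1, Prdx3 and Txn2 were lost (adjusted p 0.0626 to 0.217).

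The antioxidant response element TGACNNNGC, which Nrf2 binds, lay in the promoters of 6 of 17 antioxidant genes with a promoter in the table (35.3%), against 16.7% of tested genes. The Srxn1 promoter at chr2:152105274-152105573 (GRCm38.p6, plus strand) is shown because it holds both this motif and the AP-1 site TGANTCA; capitals mark matches on either strand.
Srxn1: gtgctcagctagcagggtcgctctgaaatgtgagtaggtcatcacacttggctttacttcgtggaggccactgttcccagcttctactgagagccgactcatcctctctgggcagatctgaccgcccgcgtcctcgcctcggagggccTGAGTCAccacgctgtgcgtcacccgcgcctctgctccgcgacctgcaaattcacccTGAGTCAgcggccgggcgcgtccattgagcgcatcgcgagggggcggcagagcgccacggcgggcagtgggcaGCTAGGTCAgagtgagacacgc
Both TGANTCA matches lie before the gene start and the TGACNNNGC match, on the opposite strand, lies after it. AP-1 subunits and Nrf2 targets were both among the genes that fell, and a role of either factor at Srxn1 was not tested. Among all genes that fell, the AP-1 site lay in 7.7%, near the 6.97% of tested genes. TGACNNNGC lay in 23.9% of them, against 16.7%.

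Enzymes of sphingolipid metabolism fell in 4 of 15 members and rose in none (26.7% called), with a median of -0.23. Sphk1, which makes the signalling lipid sphingosine-1-phosphate, stood at 0.83, -0.74 and -0.44 in silenced and 4.25, 4.38, 3.14 and 3.29 in control fibres, -3.88 (SE 0.61, adjusted p = 0.000214), with wild type at -0.99; the median over its probes was -4.73. Sgms2, a sphingomyelin synthase, was not well above background in silenced fibres and at least 8.28-fold lower (measured means -4.82 and 0.35, adjusted p = 0.00745), although control fibre 4 stood at only -2.42. Its measured difference of -5.17 was -4.58 without control fibre 3, -6.09 without control fibre 4 and as small as -1.89 over all alternative runs. The lyase Sgpl1 (-1.34, SE 0.38, adjusted p = 0.0214) and the glucosylceramide synthase Ugcg (-1.22, SE 0.39, adjusted p = 0.0380) had smaller falls. The calls of Sgms2 (floor), Sgpl1 (silenced 2, 3, control 3) and Ugcg (normexp, silenced 1, 2, control 3) did not hold with the fibre left out or the setting in brackets, at an adjusted p of 0.0537 to 0.140. With the spread taken from the 7 arrays alone, the calls of Sgpl1 and Ugcg were lost (adjusted p 0.0504 to 0.234).

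Genes of glucose uptake and glycolysis were called in both directions. Of 31 glycolysis and glycogen genes, 3 fell and 2 rose (16.1% called, near the 13.8% of all genes), with a median of 0.09, the same as that of all genes. Slc2a1, the insulin-independent glucose transporter GLUT1, stood at -0.99, -1.01 and -0.68 in silenced and 1.70, 2.50, 3.33 and 1.51 in control fibres, -3.16 (SE 0.59, adjusted p = 0.00115). Hexokinase 2 (Hk2), which traps glucose, stood at 3.90, 2.16 and 3.52 against 4.58, 4.83, 4.90 and 4.82, -1.59 (SE 0.28, adjusted p = 0.000754). The regulatory kinase Pfkfb4 (-1.51, SE 0.41, adjusted p = 0.0169) fell as well. The muscle phosphoglycerate mutase Pgam2 (0.48, SE 0.13, adjusted p = 0.0186) and Slc2a4, the insulin-sensitive transporter GLUT4, with 0.46 (SE 0.15, adjusted p = 0.0403), were higher. The fibre left out or the setting in brackets ended the calls of Pfkfb4 (probe median, silenced 3), Pgam2 (median scaling, silenced 2, control 3) and Slc2a4 (median scaling, normexp, silenced 1, 3, control 1, 2, 3), at an adjusted p of 0.0522 to 0.203. In the fit of the 7 arrays alone, of these calls those of Slc2a1 and Pfkfb4 held (adjusted p of the others 0.0653 to 0.208).

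Genes of the IGF1-AKT-mTOR pathway, which drives muscle growth, fell in 6 of 26 members and rose in 1 (26.9% called), with a median of -0.42. The insulin receptor substrate Irs2 stood at 5.09, 3.66 and 4.42 in silenced and 5.45, 6.08, 5.94 and 5.87 in control fibres, -1.45 (SE 0.36, adjusted p = 0.00955). The IGF-binding protein Igfbp5 stood at 5.58, 4.97 and 5.53 against 6.61, 6.33, 6.15 and 6.75, -1.10 (SE 0.26, adjusted p = 0.00610). The translation initiation scaffold Eif4g1 (-0.75, SE 0.17, adjusted p = 0.00500), the receptor adaptor Grb10 (-0.91, SE 0.23, adjusted p = 0.0111) and the kinases Pdpk1 (-0.50, SE 0.13, adjusted p = 0.0114) and Akt2 (-0.45, SE 0.13, adjusted p = 0.0184) fell less than 2-fold. Igf1 (0.93, SE 0.21, adjusted p = 0.00557), the ligand, was called higher, but its 4 probes disagreed in sign and their median gave -0.25; for Akt2, 1 of 3 probes had the opposite sign. With the fibre left out or the setting in brackets, adjusted p was over 0.05 for Irs2 (silenced 2), Grb10 (silenced 3), Pdpk1 (probe median, silenced 2), Akt2 (probe median, silenced 2, control 4) and Igf1 (probe median, silenced 3), at 0.0506 to 0.698. On the 7 arrays by themselves, of these calls only that of Igfbp5 held (adjusted p of the others 0.0563 to 0.170).

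Genes of muscle breakdown were called about as often as other genes when both directions are counted. Of 25 atrophy genes and ubiquitin ligases, 4 fell and none rose (16% called, against 13.8%), with a median of -0.20. All 4 calls were falls, a direction called for only 5.03% of all genes. Trim63, the ligase MuRF1 that marks sarcomere proteins, stood at 2.11, 2.60 and 1.88 in silenced and 3.79, 4.07, 3.72 and 3.18 in control fibres, -1.49 (SE 0.32, adjusted p = 0.00329), and at -1.35 in the contrast of day 14. The factor Foxo1 (-0.86, SE 0.24, adjusted p = 0.0168), which drives this programme, and the ligases Nedd4 (-0.53, SE 0.17, adjusted p = 0.0365) and Mdm2 (-0.65, SE 0.22, adjusted p = 0.0490) fell less; of the 2 probes for Nedd4 the other had the opposite sign. Of 30 autophagy genes 2 fell (6.67% called). Gabarapl1, a ubiquitin-like protein of the autophagosome, stood at 3.16, 3.04 and 3.58 against 4.32, 4.71, 5.51 and 4.00, -1.37 (SE 0.31, adjusted p = 0.00492), and the lysosomal protease Ctsl (-1.04, SE 0.33, adjusted p = 0.0351) fell with overlapping groups. None of 31 constitutive proteasome subunits was called by limma, and Psmb2 alone had an unadjusted p under 0.05. Lost with the fibre left out or the setting in brackets were the calls of Foxo1 (silenced 3, control 3), Nedd4 (probe median, silenced 3, control 1, 2), Mdm2 (floor, probe median, silenced 2, 3, control 1, 2, 3) and Ctsl (silenced 1, 3, control 1, 2, 3), at an adjusted p of 0.0501 to 0.822. When only the 7 arrays were fitted, of these calls only that of Trim63 held (adjusted p of the others 0.0767 to 0.228).

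Genes of the neuromuscular junction and of denervation fell in 5 of 18 members and rose in none (27.8% called), with a median of -0.59. Runx1, a factor that rises on denervation, stood at -3.55, -2.58 and -4.57 in silenced and -1.15, 0.07, -0.03 and -2.06 in control fibres, -2.78 (SE 0.78, adjusted p = 0.0193); it was well above background in 1 of 3 silenced fibres, and its difference was -0.78 with normexp correction. The myogenic factor Myod1 (-0.56, SE 0.15, adjusted p = 0.0140), the synaptic adaptor Dok7 (-0.75, SE 0.20, adjusted p = 0.0144) and the acetylcholine receptor subunits Chrnb1 (-0.74, SE 0.22, adjusted p = 0.0246) and Chrna1 (-1.09, SE 0.35, adjusted p = 0.0371) fell less. For Chrnb1 and Chrna1 control fibre 3 was the highest, at 1.72 and 2.54. The calls of Runx1 (silenced 3, control 2, 3), Myod1 (silenced 2), Dok7 (silenced 2), Chrnb1 (silenced 2, 3, control 3) and Chrna1 (silenced 1, 3, control 1, 3) did not hold with the fibre left out in brackets, at an adjusted p of 0.0522 to 0.135. With the spread taken from the 7 arrays alone, none of these calls held (adjusted p 0.0534 to 0.215).

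**Figure D2:**
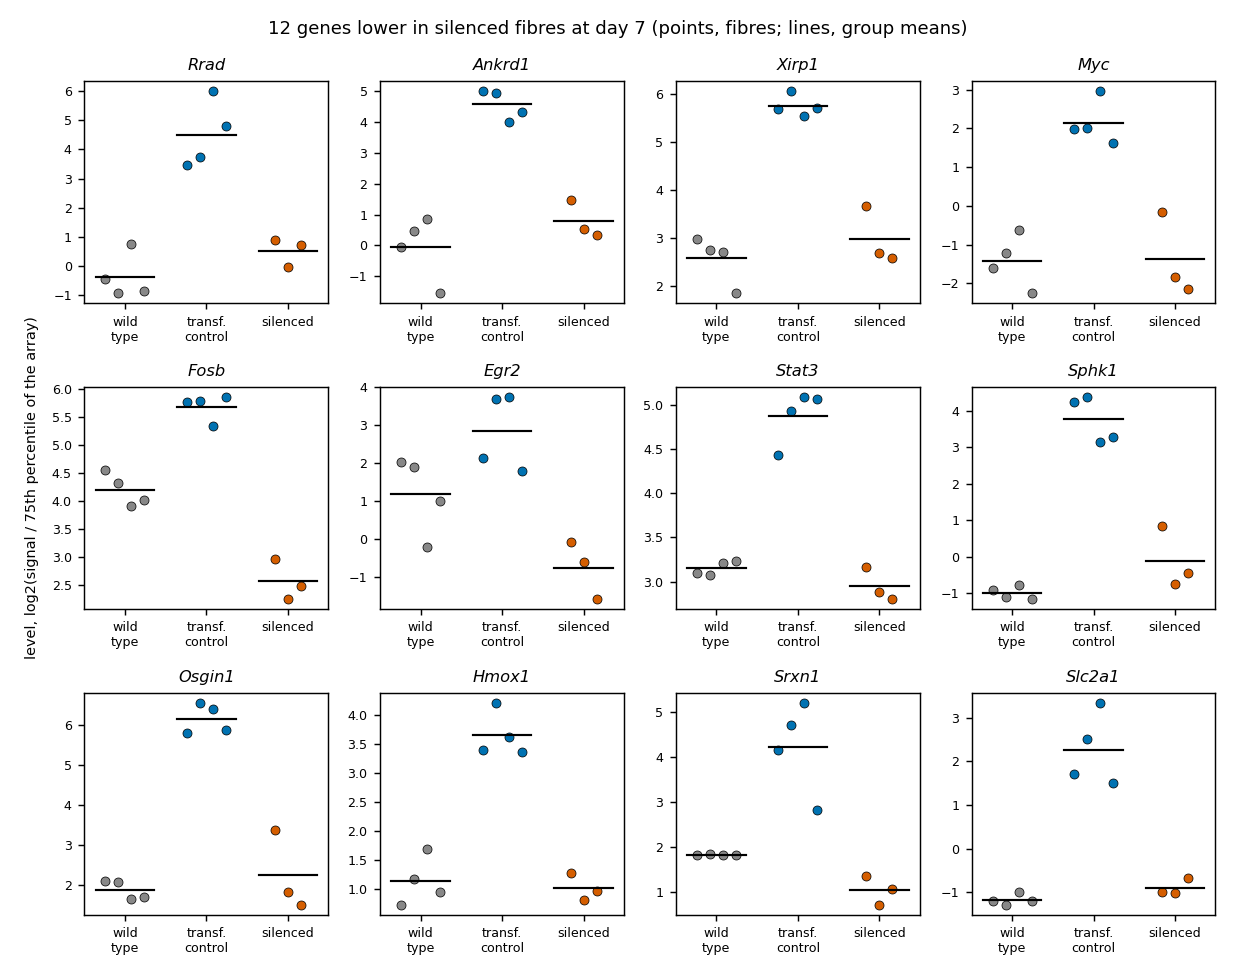
Level of 12 genes (vertical axes, log2 of signal over the array's 75th percentile) in wild type, transfected control and silenced fibres of day 7; points are fibres and lines group means. In each gene the 4 control fibres lie above the 3 silenced fibres, and in most the wild type fibres lie near the silenced ones, as for Rrad (mean -0.36), while Fosb (mean 4.20) lies between.

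Large falls were also seen outside these lists. Vasn, a membrane protein that binds TGF-beta, stood at -1.505, -2.33 and -2.34 in silenced and 1.57, 2.71, 3.84 and 0.40 in control fibres, -4.19 (SE 0.96, adjusted p = 0.00547); its second probe gave -0.72, and the probe read here was well above background in 2 of 3 silenced fibres, and its difference was -2.57 with normexp correction. Cgref1 (-4.37, SE 0.84, adjusted p = 0.00137), a secreted growth regulator, was lower in every silenced fibre than in every control; it was well above background in 1 of 3 silenced fibres, and its difference was -2.05 with normexp correction, and -3.75 without silenced fibre 3 or control fibre 3. The MAP kinase phosphatase Dusp5 was at least 5.81-fold lower (measured means -3.72 and -0.08, adjusted p = 0.00466) and the chemokine Cxcl10 at least 16.9-fold lower (measured means -3.86 and 1.38, adjusted p = 0.00351), both with no silenced fibre well above background. Over the alternative runs the measured differences were as small as -1.21 for Dusp5 and -2.15 for Cxcl10.

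**Figure D3:**
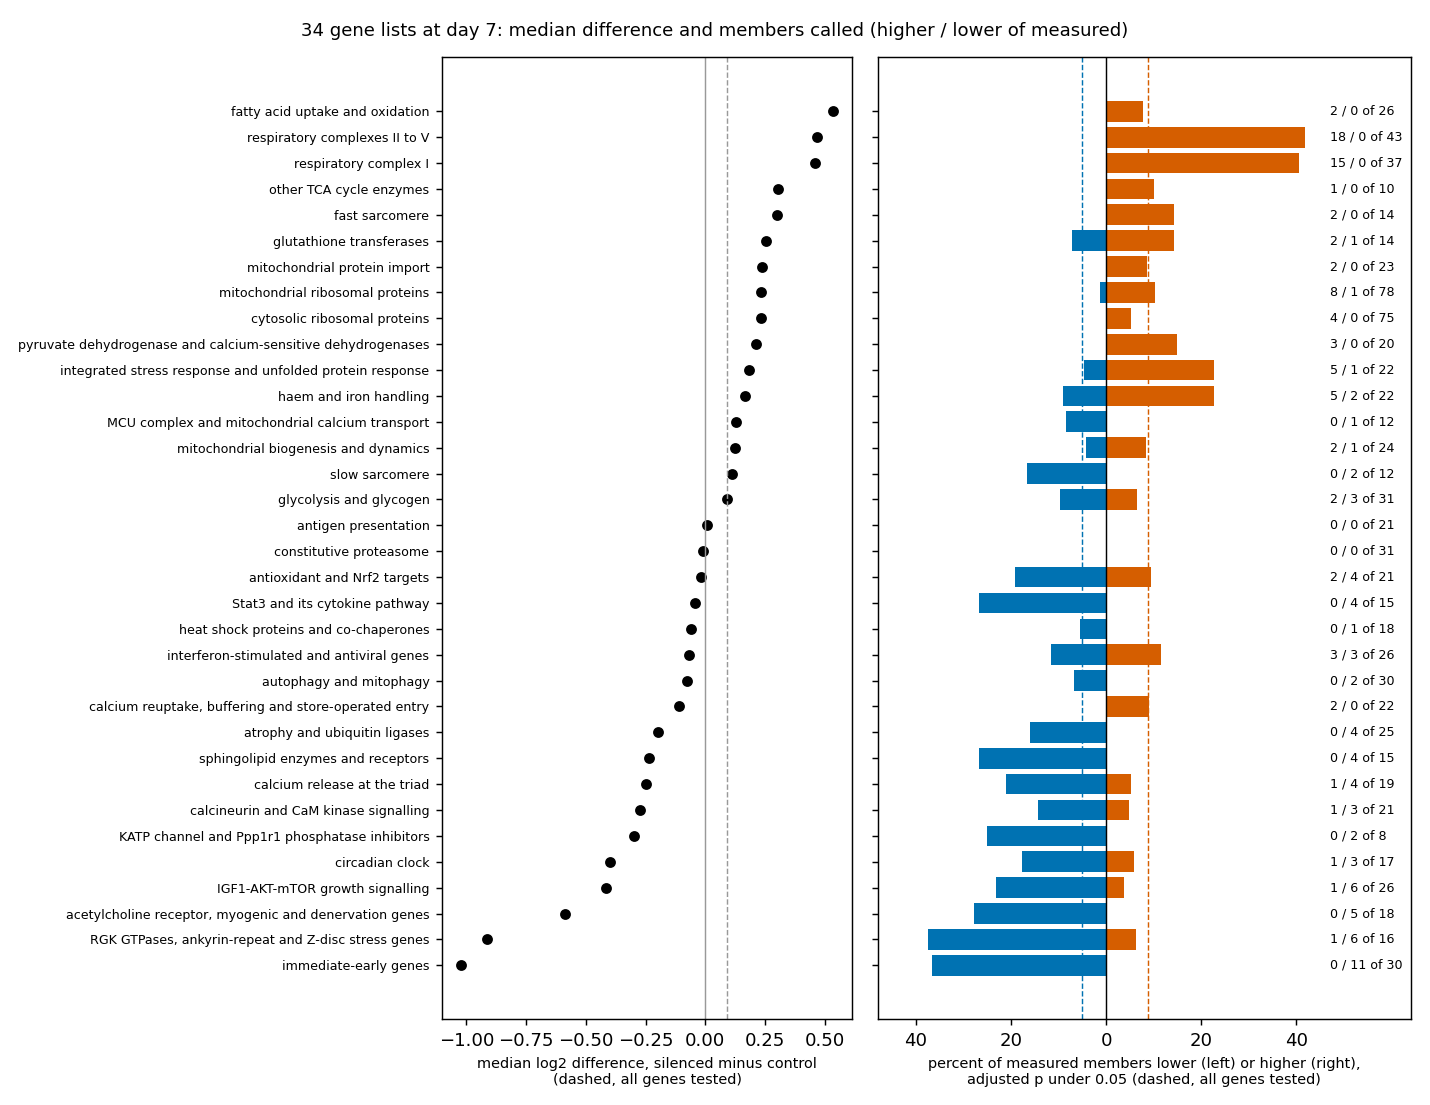
Median difference (left, log2, silenced minus control) and the share of measured members called higher (right of 0) or lower (left of 0) for 34 gene lists, ordered by median; dashed lines give all genes tested (median 0.089, 8.77% higher, 5.03% lower). The respiratory complexes stand out to the right, with 15 of 37 and 18 of 43 members higher, and immediate-early genes to the left, with 11 of 30 lower.

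Subunits of the respiratory chain were in part slightly higher. The chain passes electrons through complexes I to IV to oxygen, and complex V makes ATP from the gradient. All 80 measured subunits had a difference above 0, from 0.05 to 0.86, with a median of 0.46 against 0.09 for all genes. Of these 33 were called higher and none lower (41.2%). A positive sign was not particular to them. Of cytosolic ribosomal proteins 70 lay above and 5 below 0, of mitochondrial ones 64 and 14 (both medians 0.23), and of fatty acid genes 23 and 3 (0.54). Import genes had 18 above and 5 below, and proteasome subunits 14 and 17. In complex I, 15 of 37 rose. Ndufa7 stood at 5.80, 5.64 and 5.61 in silenced and 4.86, 5.18, 5.02 and 4.94 in control fibres, 0.69 (SE 0.12, adjusted p = 0.000547), and Ndufb2 at 6.45, 6.44 and 6.52 against 5.87, 5.89, 5.87 and 5.91, 0.58 (SE 0.11, adjusted p = 0.00130). In both the spread within a group was small beside the difference. Ndufb5 (0.66, SE 0.14, adjusted p = 0.00327), Ndufv3 (0.45, SE 0.12, adjusted p = 0.0173) and Ndufs8 (0.86, SE 0.26, adjusted p = 0.0284) were also higher.

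In complexes II to V, 18 of 43 subunits rose. The oxidase subunit Cox7b stood at 7.08, 7.17 and 7.24 against 6.21, 6.33, 6.20 and 6.56, 0.84 (SE 0.15, adjusted p = 0.000746). Cox6c (0.69, SE 0.14, adjusted p = 0.00247) of the same complex, the Rieske iron-sulphur protein Uqcrfs1 (0.71, SE 0.17, adjusted p = 0.00606) of complex III and Atp5o (0.65, SE 0.16, adjusted p = 0.00738) of the ATP synthase stalk rose too. Wild type fibres stood at 5.16 for Ndufa7, 5.92 for Ndufb2 and 6.43 for Cox7b, close to the controls. With the fibre left out or the setting in brackets, adjusted p was over 0.05 for Ndufv3 (median scaling, normexp, probe median, silenced 3, control 3) and Ndufs8 (median scaling, silenced 3, control 1, 2, 3), at 0.0515 to 0.188. On the 7 arrays by themselves, of these calls only that of Cox7b held (adjusted p of the others 0.0547 to 0.160).

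The number of respiratory calls moved with the processing more than their direction. Over the alternatives, complex I kept a median of at least 0.33 and complexes II to V of at least 0.27. Scaling to the array median left 3 and 5 calls, quantile normalization 10 and 5, and the fit of the 7 arrays alone 0 and 1. Without silenced fibre 3 there were 8 and 6 calls, and without control fibre 3 there were 9 and 9. At day 14, where both groups were other fibres on another slide, the median of the 80 subunits was 0.06 and none was called by limma.

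**Figure D4:**
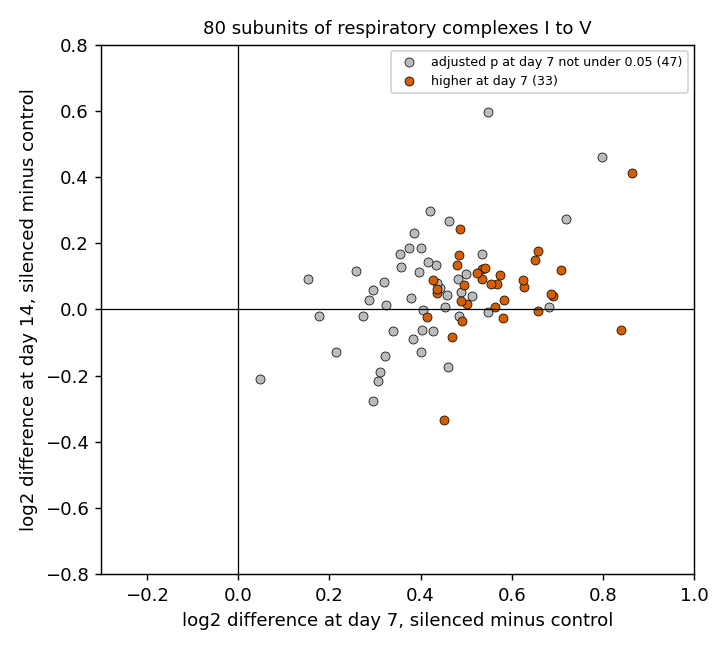
Difference of 80 respiratory chain subunits at day 7 (horizontal) and day 14 (vertical), both log2, silenced minus control; each point is a gene, coloured where it was called higher at day 7 (33 of 80). All points lie to the right of 0 at day 7, while at day 14 they scatter around 0 with a median of 0.06.

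The motif of nuclear respiratory factor 1 (GCGCA, any base, GCGC; both strands) lay in the promoters of 18 of 67 respiratory genes with a promoter in the table (26.9%), against 9.76% of tested genes, but in only 4 of the 28 that rose (14.3%). AAGGTCA, bound by the estrogen-related receptors that work with PGC-1alpha, lay in 9 of 67 (13.4%) against 4.26% of tested genes. The Atp5o promoter at chr16:91931581-91931880 (GRCm38.p6, minus strand) is shown as one that rose and holds the first motif, in capitals, just after the gene start.
Atp5o: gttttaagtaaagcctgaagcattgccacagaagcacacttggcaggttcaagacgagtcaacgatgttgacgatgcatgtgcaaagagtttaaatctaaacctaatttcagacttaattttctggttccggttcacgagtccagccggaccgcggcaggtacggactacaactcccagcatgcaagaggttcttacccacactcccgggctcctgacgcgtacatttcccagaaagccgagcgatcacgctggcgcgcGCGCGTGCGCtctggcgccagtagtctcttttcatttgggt
Ppargc1a, the gene of PGC-1alpha, a coactivator of mitochondrial genes, moved the other way. It stood at 3.08, 1.70 and 3.38 in silenced and 3.44, 3.70, 4.72 and 4.16 in control fibres, -1.28 (SE 0.35, adjusted p = 0.0171). The mitochondrial RNA polymerase Polrmt was higher by 0.35 (SE 0.12, adjusted p = 0.0484), with overlapping groups. With Tfb1m, a mitochondrial transcription factor that rose, these were the genes called among 24 of biogenesis and dynamics (12.5%). Lost with the fibre left out or the setting in brackets were the calls of Ppargc1a (silenced 2, control 3), Polrmt (median scaling, normexp, floor, probe median, silenced 1, 2, 3, control 1, 2, 3) and Tfb1m (median scaling, probe median, silenced 2, 3, control 1, 2, 3, 4), at an adjusted p of 0.0502 to 0.296. When only the 7 arrays were fitted, none of these calls held (adjusted p 0.130 to 0.268).

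Few other genes of fuel oxidation and of mitochondrial or cytosolic translation were called. Of 20 genes for pyruvate dehydrogenase, its regulators and the calcium-sensitive dehydrogenases, 3 rose and none fell (15% called), with a median of 0.21. Of all genes 13.8% were called and 8.77% were called higher. Mpc1, a subunit of the mitochondrial pyruvate carrier, stood at 4.88, 4.73 and 5.05 in silenced and 4.09, 4.28, 4.19 and 4.20 in control fibres, 0.70 (SE 0.16, adjusted p = 0.00489). Its partner Mpc2 (0.57, SE 0.18, adjusted p = 0.0369) and the dehydrogenase component Pdhx (0.53, SE 0.16, adjusted p = 0.0323) rose less. Of 10 other TCA cycle enzymes, Suclg1 (0.53, SE 0.18, adjusted p = 0.0471) alone was called (10%). In fatty acid uptake and oxidation the median was 0.54, but only Etfa (0.66, SE 0.22, adjusted p = 0.0427) and Etfb (0.78, SE 0.25, adjusted p = 0.0402), the electron transfer flavoprotein, passed among 26 genes (7.69%). Mitochondrial ribosomal proteins rose in 8 and fell in 1 of 78 members (11.5% called, below the 13.8% of all genes). The rises included Mrpl20 (0.55, SE 0.11, adjusted p = 0.00250) and Mrpl47 (0.86, SE 0.23, adjusted p = 0.0146), and Mrpl42 was the one that fell. Few of 75 cytosolic ribosomal proteins were called higher (5.33%), among them Rpl13a, Rpl3l and Rps14. Of 23 import genes Tomm5 and Tomm6 of the outer membrane pore were called higher (8.7%). These shares did not exceed the 8.77% of all genes that were called higher. The calls of Mpc2 (median scaling, normexp, silenced 1, 3, control 1, 3), Pdhx (median scaling, normexp, silenced 1, 3, control 1, 2, 3), Suclg1 (median scaling, normexp, silenced 1, 2, 3, control 1, 2, 3, 4), Etfa (median scaling, normexp, probe median, silenced 2, 3, control 1, 2, 3), Etfb (median scaling, silenced 1, 3, control 1, 2), Mrpl47 (probe median, silenced 3), Mrpl42 (silenced 1, 3, control 1), Rpl13a (median scaling, normexp, probe median, silenced 1, 2, control 1, 2, 4), Rpl3l (median scaling, silenced 1, 2, 3, control 1, 3), Rps14 (median scaling, normexp, floor, probe median, silenced 1, 2, 3, control 1, 3, 4), Tomm5 (median scaling, normexp, probe median, silenced 1, 2, 3, control 1, 2, 3, 4) and Tomm6 (median scaling, normexp, probe median, silenced 1, 2, 3, control 1, 2, 4) did not hold with the fibre left out or the setting in brackets, at an adjusted p of 0.0511 to 0.992. With the spread taken from the 7 arrays alone, none of these calls held (adjusted p 0.0534 to 0.228).

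Of 22 genes for haem and iron, 5 rose and 2 fell (31.8% called). Tmem14c, which carries a haem precursor into the mitochondrial matrix, had one of the clearest rises of the whole comparison. It stood at 2.57, 2.63 and 2.18 in silenced fibres and at -0.68, -0.56, -0.96 and -0.62 in controls, 3.17 (SE 0.21, adjusted p = 3.98e-10), with wild type at -0.65, near the controls. The iron-sulphur scaffold Iscu (0.64, SE 0.15, adjusted p = 0.00753), the mitochondrial iron carrier Slc25a28 (0.47, SE 0.12, adjusted p = 0.0104) and the haem synthesis enzyme Alad (0.78, SE 0.23, adjusted p = 0.0246) rose; Slc11a2 (-0.70, SE 0.20, adjusted p = 0.0242), an iron importer, fell beside Ftl1. The fibre left out or the setting in brackets ended the calls of Iscu (probe median), Slc25a28 (median scaling, silenced 3), Alad (median scaling, silenced 3, control 1, 3) and Slc11a2 (silenced 1, 2, control 1, 3), at an adjusted p of 0.0518 to 0.140. In the fit of the 7 arrays alone, of these calls those of Tmem14c and Ftl1 held (adjusted p of the others 0.0797 to 0.153).

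Glutathione transferases, which couple glutathione to electrophiles, were called in both directions, 2 of 14 higher and 1 lower (21.4% called). The microsomal Mgst1 stood at 0.16, -1.49 and 0.84 in silenced and -4.15, -3.02, -4.39 and -1.66 in control fibres, 3.14 (SE 0.71, adjusted p = 0.00484), and Mgst3 at 5.71, 5.64 and 6.16 against 4.79, 5.11, 4.27 and 5.01, 1.04 (SE 0.23, adjusted p = 0.00464). Mgst1 was well above background in 2 of 4 controls, and its difference was 1.32 with normexp correction, and 3.81 without silenced fibre 2. Gstt2, with no silenced fibre well above background, was at least 1.54-fold lower (measured means -3.34 and -2.08, adjusted p = 0.0368), but normexp brought it to -0.0998 (adjusted p = 0.570). Gstt3, not on the list, was at least 7.48-fold lower (measured means -3.98 and 0.23, adjusted p = 2.15e-06), with no silenced fibre well above background. Over the alternative runs its measured difference was as small as -1.26. With the fibre left out or the setting in brackets, adjusted p was over 0.05 for Gstt2 (normexp, floor, silenced 1, 2, 3, control 1, 2, 3), at 0.0588 to 0.570. On the 7 arrays by themselves, the calls of Mgst1 and Mgst3 were lost (adjusted p 0.0647 to 0.0660).

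Targets of the integrated stress response, through which mitochondrial stress is known to raise serine and asparagine synthesis, rose in part. Of 22 genes of this and the unfolded protein response, 5 rose and 1 fell (27.3% called), with a median of 0.18. Psat1, an enzyme of serine synthesis, stood at -0.47, -0.12 and -0.06 in silenced and -1.24, -1.295, -0.95 and -1.06 in control fibres, 0.92 (SE 0.18, adjusted p = 0.00162). Pck2, the mitochondrial phosphoenolpyruvate carboxykinase, was not well above background in controls and at least 1.502-fold higher in silenced fibres (measured means -2.45 and -3.37, adjusted p = 0.00258). Over the alternative runs its measured difference was as small as 0.31. The asparagine synthetase Asns (1.85, SE 0.54, adjusted p = 0.0251), the pseudokinase Trib3 (0.84, SE 0.27, adjusted p = 0.0414) and the mitochondrial folate enzyme Aldh1l2 (1.14, SE 0.38, adjusted p = 0.0477) rose as well; Asns was well above background in 2 of 4 controls, and its difference was 0.67 with normexp correction. The chaperone Dnajb9 (-0.73, SE 0.24, adjusted p = 0.0459) fell, and of 18 heat shock genes only Hspb8 (-1.37, SE 0.43, adjusted p = 0.0343) was called, lower (5.56%). Lost with the fibre left out or the setting in brackets were the calls of Asns (silenced 1, 2, control 1, 4), Trib3 (median scaling, silenced 2, 3, control 1, 3, 4), Aldh1l2 (median scaling, silenced 1, 2, 3, control 2, 3, 4), Dnajb9 (probe median, silenced 1, 2, 3, control 1, 2, 3) and Hspb8 (silenced 2, 3, control 1, 2, 3), at an adjusted p of 0.0506 to 0.189. When only the 7 arrays were fitted, of these calls those of Psat1 and Pck2 held (adjusted p of the others 0.0720 to 0.102).

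Large rises outside the lists were of unrelated single genes. Cep250, a centrosome protein, was not well above background in controls and at least 8.36-fold higher in silenced fibres (measured means -0.11 and -4.51, adjusted p = 8.60e-05). The median over its probes was 1.96, and over all alternative runs its measured difference was as small as 1.40. The lysosomal galactosidase Glb1 stood at 1.84, 2.26 and 1.71 in silenced and -1.81, -0.98, -0.93 and -1.72 in control fibres, 3.30 (SE 0.47, adjusted p = 8.07e-05), and the lipase Ces1d at -0.04, -0.99 and 0.39 against -2.61, -2.79, -4.85 and -3.31, 3.18 (SE 0.60, adjusted p = 0.00117). Spidr (3.21, SE 0.78, adjusted p = 0.00822), a scaffold of DNA repair, Mki67 (3.22, SE 0.57, adjusted p = 0.000738), a proliferation marker, and the glutamate dehydrogenase pseudogene Glud-ps (2.48, SE 0.16, adjusted p = 3.98e-10) rose as well. Ces1d was well above background in 2 of 4 controls, and its difference was 1.16 with normexp correction, and Mki67 was well above background in 1 of 4 controls, and its difference was 1.35 with normexp correction. Wild type levels were 1.47 for Glb1, -1.23 for Ces1d, -0.59 for Mki67 and 0.38 for Glud-ps, closer to the silenced fibres, whereas wild type Spidr, at -0.64, was closer to the controls.

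Of the genes that handle calcium outside the mitochondrion, some for its release fell and few for its reuptake were called. At the triad, where the sarcoplasmic reticulum releases calcium, 4 of 19 genes fell and 1 rose (26.3% called), with a median of -0.25. The release channel Ryr1 stood at 5.99, 5.45 and 5.51 in silenced and 6.40, 6.04, 6.33 and 6.72 in control fibres, -0.72 (SE 0.23, adjusted p = 0.0402). Its isoform Ryr3 was not well above background in silenced fibres and at least 1.64-fold lower (measured means -3.47 and -1.96, adjusted p = 0.0313). Over the alternative runs the measured difference of Ryr3 was as small as -0.15. Sarcalumenin Srl (-0.43, SE 0.14, adjusted p = 0.0379) and the channel subunit Cacna2d1 (-0.60, SE 0.20, adjusted p = 0.0448) fell, and Fkbp1a (0.41, SE 0.14, adjusted p = 0.0458), which stabilises the release channel, was called higher, with 1 of 3 probes of the opposite sign and a median over probes of -0.16. Among 22 reuptake, buffering and entry genes, the store-operated channel Orai3 (0.82, SE 0.14, adjusted p = 0.000384) and the plasma membrane pump Atp2b2 (0.51, SE 0.11, adjusted p = 0.00344) were called higher (9.09%), but the 3 Orai3 probes gave -0.998, 0.02 and 0.82, and their median was not called (adjusted p = 0.980). The fibre left out or the setting in brackets ended the calls of Ryr1 (silenced 2, 3, control 1, 3, 4), Ryr3 (normexp, floor, silenced 2, 3, control 1, 2), Srl (silenced 1, 3, control 1, 2, 4), Cacna2d1 (silenced 1, 2, 3, control 1, 2, 4), Fkbp1a (median scaling, normexp, floor, probe median, silenced 2, 3, control 1, 3) and Orai3 (probe median), at an adjusted p of 0.0508 to 0.980. In the fit of the 7 arrays alone, of these calls those of Ryr3 and Orai3 held (adjusted p of the others 0.119 to 0.296).

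Of 21 genes of calcineurin and CaM kinase signalling, 3 fell and 1 rose (19% called). Mef2d, a factor that this signalling activates, stood at 3.35, 3.35 and 3.32 in silenced and 3.79, 3.81, 3.98 and 4.24 in control fibres, -0.61 (SE 0.14, adjusted p = 0.00408). Its repressor Hdac4 (-0.76, SE 0.24, adjusted p = 0.0346) and the calcineurin subunit Ppp3ca (-0.48, SE 0.16, adjusted p = 0.0423) fell, and the subunit Ppp3cc (0.86, SE 0.28, adjusted p = 0.0403) rose. Of the fast sarcomere genes Tpm2 (0.54, SE 0.13, adjusted p = 0.00918) and Tnnt3 (0.39, SE 0.13, adjusted p = 0.0490) were higher among 14 (14.3%). In a list of 12 slow fibre and other sarcomere genes 2 were lower (16.7%). These were the slow light chain Myl2, with -1.43 (SE 0.29, adjusted p = 0.00246), and Mybph (-3.93, SE 1.199, adjusted p = 0.0311), which is not a slow fibre gene. Myl2 was well above background in 2 of 3 silenced fibres, and its difference was -0.41 with normexp correction. For Mybph control fibre 3 was at 5.28 and control fibre 4 at -0.21, without which the difference was -4.90. With the fibre left out or the setting in brackets, adjusted p was over 0.05 for Hdac4 (silenced 2, 3, control 1, 2, 3), Ppp3ca (silenced 2, 3, control 1, 2, 3), Ppp3cc (median scaling, silenced 1, 2, 3, control 1, 2, 3), Tpm2 (median scaling), Tnnt3 (median scaling, normexp, floor, probe median, silenced 2, 3, control 1, 3, 4) and Mybph (silenced 1, 2, 3, control 1, 2, 3), at 0.0502 to 0.309. On the 7 arrays by themselves, of these calls only that of Myl2 held (adjusted p of the others 0.0837 to 0.262).

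In a list of KATP channel and phosphatase inhibitor genes, 2 of 8 fell (25%), each by more than the range within either group. Ppp1r1c, an inhibitor of protein phosphatase 1, stood at -2.41, -3.54 and -2.77 in silenced and 0.82, 1.32, 1.65 and 1.02 in control fibres, -4.11 (SE 0.28, adjusted p = 4.09e-10); it was well above background in 1 of 3 silenced fibres, and its difference was -2.06 with normexp correction. Abcc9, the sulphonylurea receptor SUR2 of the muscle KATP channel, stood at 1.60, 1.72 and 0.89 against 4.02, 3.68, 3.65 and 3.79, -2.38 (SE 0.18, adjusted p = 3.95e-09). The wild type level of Abcc9 was 1.76, near the silenced fibres, and that of Ppp1r1c was -0.24, between the groups. The pore subunit Kcnj11 differed by -0.65 (SE 0.26, adjusted p = 0.0985) and was not called.

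Interferon-stimulated genes were called in both directions. Of 26 measured, 3 rose and 3 fell (23.1% called), with a median of -0.07. Ifit3, an antiviral tetratricopeptide protein, had the largest fitted rise of any gene with a symbol. It stood at 0.64, 1.25 and -0.05 in silenced fibres and at -5.52, -5.46, -5.12 and -5.17 in controls, none of which was well above background, and so was at least 13.8-fold higher (measured means 0.61 and -5.32, adjusted p = 1.70e-10). Its close copy Ifit3b stood at -0.16, 0.38 and -1.21 against -4.40, -3.15, -4.76 and -4.07 and was at least 7.01-fold higher (measured means -0.33 and -4.09, adjusted p = 1.36e-06). Over the alternative runs the measured rises were as small as 2.18 for Ifit3 and 1.11 for Ifit3b. The 2 genes are close paralogs, and whether their probes tell them apart was not tested. Batf2 (1.39, SE 0.45, adjusted p = 0.0401) rose, though silenced fibre 1 lay among the controls; without that fibre the difference was 2.28.

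The guanylate-binding protein Gbp7 went the other way: it stood at -4.12, -2.72 and -3.26 in silenced fibres, none well above background, and at -0.06, -0.75, -0.21 and -0.87 in controls, at least 4.69-fold lower (measured means -3.36 and -0.47, adjusted p = 0.000452). The immunity-related GTPase Irgm2 stood at -0.81, 0.03 and -1.75 against 1.37, 1.43, 2.68 and 1.54, -2.60 (SE 0.52, adjusted p = 0.00208). Stat2, a factor of interferon signalling, was at least 1.54-fold lower (measured means -4.33 and -2.08, adjusted p = 0.00361). Over the alternative runs the measured differences were as small as -0.79 for Gbp7 and -0.28 for Stat2. Of 21 antigen presentation genes none was called by limma, while B2m, Cd74 and H2-Eb1 had an unadjusted p under 0.05, and B2m differed by -0.89 (SE 0.36, adjusted p = 0.0967). On the other slide of day 7, the MCU vector against wild type gave 4.54 for Ifit3, 4.76 for Gbp7, 5.48 for Irgm2 and 3.57 for B2m. Lost with the fibre left out or the setting in brackets were the calls of Batf2 (median scaling, silenced 2, 3, control 1, 2, 3, 4) and Stat2 (normexp, floor), at an adjusted p of 0.0549 to 0.291. When only the 7 arrays were fitted, the call of Batf2 was lost (adjusted p = 0.240).

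Some interferon-stimulated genes that rose and some that fell shared an interferon motif of GAAA, any 2 bases and GAAA, searched on both strands. It lay in 11 of 17 interferon-stimulated genes with a promoter in the table (64.7%), against 3.62% of tested genes. Among all called genes it lay in 3.58% of those that rose and 3.32% of those that fell, near the share of tested genes. The promoters of Ifit3 at chr19:34583279-34583578 and Ifit3b at chr19:34607707-34608006, which rose, and of Gbp7 at chr3:142530086-142530385 and Irgm2 at chr11:58214727-58215026, which fell, are shown (GRCm38.p6, all on the plus strand), with the motif or its reverse complement in capitals.
Ifit3: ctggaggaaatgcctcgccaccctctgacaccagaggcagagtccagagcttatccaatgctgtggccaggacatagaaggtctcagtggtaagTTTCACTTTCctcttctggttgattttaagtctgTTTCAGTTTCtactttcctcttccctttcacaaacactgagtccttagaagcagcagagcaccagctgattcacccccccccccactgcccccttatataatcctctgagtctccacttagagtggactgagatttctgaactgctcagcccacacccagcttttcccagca
Ifit3b: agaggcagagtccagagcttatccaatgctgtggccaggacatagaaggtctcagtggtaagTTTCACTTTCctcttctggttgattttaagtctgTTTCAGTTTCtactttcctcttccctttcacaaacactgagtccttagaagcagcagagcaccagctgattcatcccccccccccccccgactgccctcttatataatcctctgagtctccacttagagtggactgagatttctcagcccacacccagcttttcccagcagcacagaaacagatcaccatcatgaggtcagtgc
Gbp7: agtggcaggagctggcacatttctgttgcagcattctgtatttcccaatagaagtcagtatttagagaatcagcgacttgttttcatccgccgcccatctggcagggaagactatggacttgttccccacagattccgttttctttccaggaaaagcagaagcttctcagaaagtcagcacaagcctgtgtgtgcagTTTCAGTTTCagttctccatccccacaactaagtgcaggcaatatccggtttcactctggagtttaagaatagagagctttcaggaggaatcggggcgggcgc
Irgm2: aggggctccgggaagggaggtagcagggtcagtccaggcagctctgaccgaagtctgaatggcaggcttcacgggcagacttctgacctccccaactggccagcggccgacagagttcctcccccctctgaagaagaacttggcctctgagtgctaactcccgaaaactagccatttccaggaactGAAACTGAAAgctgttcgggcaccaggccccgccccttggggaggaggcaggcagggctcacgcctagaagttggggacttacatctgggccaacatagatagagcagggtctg
Ifit3 and Ifit3b each hold 2 matches and Gbp7 and Irgm2 1 each. In a global alignment, 259 of 332 columns of the Ifit3 and Ifit3b windows were identical (78%), with a longest shared run of 169 bases that covers both matches.

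Circadian clock genes were called at both time points, in part in opposite directions. At day 7, 3 of 17 fell, with a median of -0.40. The repressor Per1 stood at -0.07, -0.83 and -0.999 in silenced and 1.61, 2.08, 2.82 and 1.18 in control fibres, -2.56 (SE 0.41, adjusted p = 0.000249); its second probe gave -0.65 and the median over both -1.60. Per2 was not well above background in silenced fibres and at least 3.80-fold lower (measured means -3.24 and -0.78, adjusted p = 0.00280). Over the alternative runs its measured difference was as small as -0.84. Ciart (-1.91, SE 0.57, adjusted p = 0.0281), another repressor, fell as well and was well above background in 1 of 3 silenced fibres, and its difference was -0.57 with normexp correction. The clock output Dbp was not called at day 7, with -0.23 (SE 0.21, adjusted p = 0.489), but rose at day 14, by 2.33 (adjusted p = 7.15e-08). Usp2, another output, likewise had -0.24 (SE 0.12, adjusted p = 0.178) at day 7 and 1.204 (adjusted p = 2.52e-07) at day 14. The difference between days, day 14 minus day 7, passed for 7 of the 17 clock genes: it was above 0 for Per1, Per2, Per3, Cry2, Dbp and Tef and below 0, at -2.83, for the activator Arntl. The hour at which each fibre was taken is not given in the sources used here. The call of Ciart (normexp, silenced 2, 3, control 2, 3, 4) did not hold with the fibre left out or the setting in brackets, at an adjusted p of 0.0583 to 0.117. With the spread taken from the 7 arrays alone, of these calls only that of Per1 held (adjusted p of the others 0.0681 to 0.0922).

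The difference between the days was tested for each gene, as the silencing difference at day 14 minus that at day 7. It passed for 965 of 23341 genes (4.13%), 318 above (1.36%) and 647 below 0 (2.77%), with a median of -0.08. The silencing contrast of day 14 by itself called 821 genes (3.52%), 382 higher (1.64%) and 439 lower (1.88%). Abcc9 reversed: it fell at day 7 and rose at day 14, by 2.59 (adjusted p = 5.69e-10) (difference between days 4.97, adjusted p = 1.22e-12). Tmem14c, Glb1 and Glud-ps rose at day 7 and differed by 0.17, -1.05 and -0.51 at day 14, none of them called there. Ifit3 was 1.64 at day 14 (adjusted p = 0.00571) and Ifit3b 0.18 (adjusted p = 0.838).

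Of the genes that fell at day 7, Fosb and Egr2 also differed between the days, by 3.95 (adjusted p = 0.00755) and 3.83 (adjusted p = 0.0476), as did Per1, Per2 and Gstt3, by 3.16, 4.37 and 4.37. For Rrad, Gem, Stat3, Sphk1 and Hmox1 the days could not be distinguished (adjusted p of the difference from 0.0656 to 0.820), and at day 14 they stood at -4.52, -2.87, -1.03, -3.23 and -1.89, all called lower. Of the respiratory subunits, 5 of 80 passed the test of the difference between days, all with a smaller value at day 14: Ndufa7, Ndufb2, Ndufb5, Cox7b (-0.90, adjusted p = 0.0114) and Ndufv3 (-0.79, adjusted p = 0.00786). Day and slide cannot be told apart, since each day had slides of its own.

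**Figure D5:**
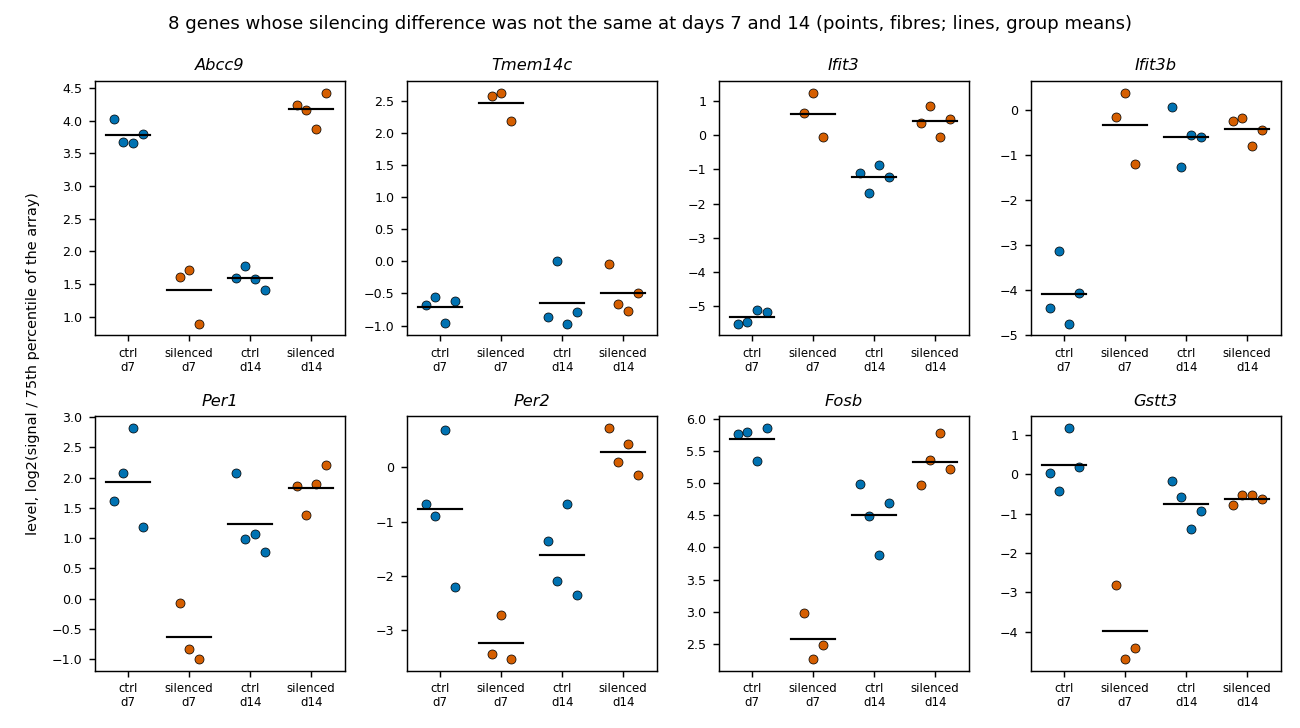
Level of 8 genes (vertical axes, log2 of signal over the array's 75th percentile) in transfected control and silenced fibres of days 7 and 14; points are fibres and lines group means. Abcc9 lies 2.38 lower in silenced fibres at day 7 and 2.59 higher at day 14, and Ifit3b and Tmem14c are apart at day 7 but not at day 14.

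Markers of other cells that can cling to a fibre were read beside these results, and their part in them was not tested. The summed signal of 11 macrophage markers was 296.2 to 339.6 in silenced and 238.1 to 281.1 in control fibres, in units of the array's 75th percentile, against 291.6 to 350.6 in wild type, while C1qa, Mrc1, Cd163 and Cx3cr1 were not detected on any of the 7 arrays. Within the list Cd68, a lysosomal protein of phagocytes that other cells also make, fell by 2.75 (SE 0.71, adjusted p = 0.0114), Itgam (0.33, SE 0.11, adjusted p = 0.0406), at 8.07, 8.28 and 8.22 against 7.89, 7.88, 7.70 and 7.98 the source of most of the sum, rose, and Adgre1 (-1.38, SE 0.46, adjusted p = 0.0488) was called lower close to background, with a sign that turned to 0.11 when dim spots were set to the floor. Lymphocyte markers summed to 6.483 to 9.178 in silenced and 5.26 to 5.803 in control fibres, with Cd3g, Cd2, Ms4a1 and Klrb1c undetected. Schwann cell markers summed to 3.47 to 3.675 against 1.782 to 2.578, adipocyte markers to 2.254 to 2.83 against 1.47 to 2.202, and satellite cell markers to 1.651 to 2.318 against 2.484 to 4.31. The satellite cell sum holds only Cdh15 and Itga7, 2 of 7 listed markers, neither of them called, and Myf5, Calcr and Chrdl2 were undetected. Each of these 5 sums was free of overlap (exact permutation p = 0.0571, the smallest possible; 0.114 adjusted).

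Fibroblast, endothelial, mural and erythroid sums overlapped between the groups, and Pdgfra, Lum, Cdh5, Tek, Pdgfrb and Rgs5 were undetected on all 7 arrays. Single markers that were called are Cd4 (0.64, SE 0.14, adjusted p = 0.00429), Mfap5 (0.97, SE 0.32, adjusted p = 0.0471), Cspg4 (2.20, SE 0.26, adjusted p = 8.38e-06), Sox10 (1.33, SE 0.34, adjusted p = 0.0118), Pparg (0.50, SE 0.12, adjusted p = 0.00716) and Adipoq (1.06, SE 0.33, adjusted p = 0.0362), all higher in silenced fibres. The second Cd4 probe gave -0.12, and Adipoq was well above background in 2 of 3 silenced fibres and 1 of 4 controls, and its difference was 0.40 with normexp correction. Cspg4, a proteoglycan of pericytes, stood at 1.22, 2.28 and 2.05 in silenced and -0.90, -0.34, 0.02 and -0.19 in control fibres, with wild type at 1.25. The fibre left out or the setting in brackets ended the calls of Itgam (median scaling, normexp, probe median, silenced 2, 3, control 1, 2, 3), Adgre1 (normexp, floor, probe median, silenced 2, 3, control 1, 3, 4), Cd4 (probe median, silenced 3), Mfap5 (median scaling, silenced 1, 2, 3, control 1, 2, 4), Sox10 (silenced 1), Pparg (median scaling) and Adipoq (median scaling, floor, silenced 1, 3, control 1, 3), at an adjusted p of 0.0502 to 0.800. In the fit of the 7 arrays alone, of these calls those of Cd68 and Cspg4 held (adjusted p of the others 0.0893 to 0.266).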

How the data were processed

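Agilent 1-colour arrays (Cy3) were read for 30 single fibres, 1 array each; the comparison uses 3 silenced and 4 control fibres of day 7. The deposited intensities are the processed signals of Agilent Feature Extraction 10.7.3.1, background-subtracted within each array, per the file headers; further steps of the authors are not given in the sources used here. Their value table of intensities followed the same arrays (correlation of at least 0.998 with the own array, column medians of 22.51 to 23.2 on a linear scale) and served as an alternative; its scaling and centring stay unknown.

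Control spots were left out, spots of a probe averaged, signals divided by the array's 75th percentile and log2 taken. Probes were kept if 3 arrays or more of any group had them well above background, 33163 of 55681, and a gene was read by its probe of highest mean, 23341 in all. Probes were named through RefSeq accessions (26425), symbols (3988) or synonyms (826), and the others kept the files' names. limma 3.58.1 (R 4.3.3) fitted 8 group means on 30 arrays, with Benjamini-Hochberg adjustment and a threshold of 0.05; figures used matplotlib 3.10.9 (Python 3.11.15). On simulated data for this comparison over 23341 genes the fit recovered 16%, 54%, 88% and 100% of 50 genes each changed by 0.5, 1, 2 and 4 (log2), with 9 false calls among 138. The simulation drew independent noise for each gene, with no array shift between the groups, no stray fibre and no shared animal. Its false calls therefore give no error rate for the calls made here.

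The rule for naming took Mcu, the 20 largest rises and falls with a symbol, the 10 largest bounded ones in each direction, up to 4 members of each of 34 lists by test statistic, and the 10 smallest p-values of the difference between days; not all were named. Mcub, Micu2, Smdt1, Mustn1, Flnc, Klf6, Klf10, Nr4a1, Nr4a3, Srf, Nfe2l2, Txn2, Ndufs8, Ndufv3, Atp5o, Slc2a4, Fkbp1a, Grb10, Pdpk1, Akt2, Chrna1, Stat2, Batf2, Aldh1l2, Dnajb9, Slc11a2, Alad, Mrpl42, Arntl, Per3, Cry2 and Tef were named after their values were seen. Gene lists and members were chosen with earlier results of these data known, and no list was tested as a set. Some results are not reported here. Marker sums were compared by exact permutation. Alternatives changed background correction, scaling, filter, probe rule, fitted groups and covariates, added a replicate block, or left out single fibres.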

Additional observations from a re-analysis of the deposited data

Results flagged for a closer look

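In 16 of the 161 named genes 1 of the 4 control fibres of day 7 stood far from the other 3, with a gap to the nearest of more than 0.829 of the range. This is Dixon's critical value for 4 samples, which chance alone passes in about 1 group in 20. The genes share the same 4 fibres and many were named by their values, so they are not independent draws and their number was not tested. It was control fibre 3 for Nfe2l2 (0.90), Ugcg (0.97), Mpc2 (3.97), Suclg1 (4.16), Mrpl20 (2.89), Pgam2 (7.35), Atp2b2 (2.60), Chrnb1 (1.72), Irgm2 (2.67), Dbp (3.53), Usp2 (3.01) and Mfap5 (-1.23), the brackets giving its level as log2 of signal over the array's 75th percentile. It was control fibre 2 for Slc8b1 (3.07) and Dnajb9 (2.66), and control fibre 4 for Ndufb5 (5.47) and Uqcrfs1 (5.18). Control fibre 3 is the fibre with the lowest correlation with the other controls.

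In other genes the difference between silenced and control fibres was not the same at day 14 as at day 7, tested in limma as the difference at day 14 minus that at day 7. Among clock genes and clock outputs it was above 0 for Dbp (2.56, adjusted p = 8.91e-06), Usp2 (1.44, adjusted p = 8.91e-06), Per1 (3.16, adjusted p = 0.00123), Per2 (4.37, adjusted p = 0.000474), Per3 (2.59, adjusted p = 0.00181), Cry2 (1.60, adjusted p = 0.00368) and Tef (0.72, adjusted p = 0.0384), and below 0 for Arntl (-2.83, adjusted p = 0.00119). It was also above 0 for Abcc9 (4.97, adjusted p = 1.22e-12), Gstt3 (4.37, adjusted p = 0.000160), Fosb (3.95, adjusted p = 0.00755), Ppp1r1c (1.58, adjusted p = 0.0150) and Egr2 (3.83, adjusted p = 0.0476). Large values below 0 were those of Glud-ps (-2.98, adjusted p = 7.46e-09), Tmem14c (-3.0004, adjusted p = 7.48e-07), Ifit3 (-4.30, adjusted p = 1.00e-05), Cspg4 (-2.53, adjusted p = 0.000138), Glb1 (-4.35, adjusted p = 0.000225), Ifit3b (-3.58, adjusted p = 0.000228), Cep250 (-5.68, adjusted p = 0.000287), Mki67 (-4.02, adjusted p = 0.00327), Spidr (-5.42, adjusted p = 0.00369) and Ces1d (-3.24, adjusted p = 0.0223). Among respiratory subunits it was below 0 for Ndufv3 (-0.79, adjusted p = 0.00786), Cox7b (-0.90, adjusted p = 0.0114), Ndufa7 (-0.64, adjusted p = 0.0228), Ndufb2 (-0.55, adjusted p = 0.0367) and Ndufb5 (-0.66, adjusted p = 0.0481), and among other mitochondrial, calcium and growth genes for Prdx3 (-0.92, adjusted p = 0.0268), Iscu (-0.80, adjusted p = 0.0304), Slc25a28 (-0.61, adjusted p = 0.0325), Mrpl20 (-0.63, adjusted p = 0.0196), Orai3 (-0.80, adjusted p = 0.0127), Psat1 (-0.96, adjusted p = 0.0246) and Igf1 (-1.40, adjusted p = 0.00609).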

How the results depend on the processing

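The number of genes changed by silencing at day 7, 3220, was 868 in the fit of the 7 arrays alone, 1868 with array weights, 1355 when a 2-fold difference was also asked for, and 1938 to 2988 with single fibres left out, the lowest without silenced fibre 3. Under the other settings, among them other background corrections, normalizations and filters, the authors' value table, and the row on the slide or the share of detected probes as a covariate, it stayed within 1.5 times of 3220. A replicate block gave 2272 calls. The deviations of same-numbered fibres correlated at 0.0332, 0.186 and 0.000635 for numbers 1 to 3. The value for number 2 was the largest of any silenced and control pair, while silenced fibre 3 deviated most like control fibre 4 (0.177). The animal behind each fibre is not given, and the numbers were not taken as pairs. The count of genes with a difference between days, 965, fell to 527 with array weights and 577 with the replicate block, and was 706 to 974 with single fibres left out. Of the 145 named genes that were called, 47 kept their call in every alternative run, 59 with the 7 arrays alone, 72 without any single fibre and 103 without control fibre 3. Among other settings, calls of named genes were lost for 50 with array weights, 50 with the replicate block, 35 with no filter, 31 with median scaling, 25 with the probe median, 22 with normexp, 22 with the value table, 21 with quantile normalization and 12 with dim spots at the floor. Signs turned for Adgre1 at the floor (0.11), for Fkbp1a (-0.16) and Igf1 (-0.25) with the median over probes, for Per3 with normexp correction (0.076) and without silenced fibre 2 (from -0.58 to 0.29 over single fibres left out), for Smdt1 without silenced fibre 1 (-0.32 to 0.033), and without control fibre 3 for Micu2 (-0.37 to 0.00068) and Dbp (-0.37 to 0.038). Genes near background have only bounds: 181 called genes were not well above background in any control fibre and 171 in any silenced fibre. The bounds hold for the processed signals and not for every alternative run.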
